A study of Homo sapiens with 16 samples.

Results

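The TGF-beta pathway genes described here were 9 protein-coding genes of 19962 on chromosomes 1 to 22 and X in GENCODE 44: the ligand genes TGFB1, TGFB2, TGFB3 and INHBA, the receptor genes TGFBR1 and TGFBR2, the signal transducer SMAD3, and the inhibitor genes SMAD7 and SKIL. They were chosen by name, and p65 signal was read in every 200-bp bin from 50 kb upstream to 10 kb downstream of each gene on GRCh38, introns included, which made 5467 bins. A bin was listed in a group when the mean of the group was at least 2 and at least 4 times the matched input. The unit was tags per base after scaling each library to 10000000 tags. In at least 1 group, 29 of the 5467 bins were listed, against 12569 of 15155200 bins in the genome (0.0829%). The genes were chosen with earlier results of these data known, so this comparison is a description.

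The chromatin came from HT29 and SW480, human colorectal cancer cell lines. From each line, cells that express exogenous estrogen receptor beta (ERβ, the product of ESR2) and mock control cells (mock) had been made earlier. The 4 ChIP groups were HT29 mock, HT29 ERβ, SW480 mock and SW480 ERβ, with 3 libraries each and 1 input library per group. All cells, mock included, received TNFα at 30 ng/ml for 30 minutes before double crosslinking with DSG and formaldehyde, and p65 was precipitated with a mouse monoclonal antibody. No estrogen receptor ligand and no cells without TNFα entered these groups, so the values say nothing about induction by TNFα. Each condition is 1 derivative of a line, and ERβ and the derivation of the cells cannot be told apart. The study names the 3 libraries of a group biological replicates and the labels add nothing on their cultures, and the p-values below measure the spread between these libraries. A library averages over all its cells, and fewer bound cells and less binding per cell cannot be told apart.

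TGF-beta ligands are secreted in a latent form and, once released, bring type II and type I serine/threonine kinase receptors together. The activated type I receptor phosphorylates SMAD2 and SMAD3, which enter the nucleus with SMAD4 and act on target genes. SMAD7 blocks the type I receptor, SKIL (SnoN) represses SMAD-dependent transcription, and p65 (RELA) is an NF-κB subunit with a transactivation domain that enters the nucleus after TNFα and binds κB motifs. In colon epithelium the pathway restrains growth, and colorectal tumours often lose parts of it.

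The labels were checked at ESR2 first. An introduced cDNA carries exons without introns. The ratio of signal in ESR2 coding exons to that in its introns was 3.90 to 7.06 in the 3 HT29 ERβ libraries against 1.07 to 1.34 in HT29 mock, and 2.44 to 3.10 in SW480 ERβ against 1.29 to 1.61 in SW480 mock. This ratio reads DNA, not expression, and the study reports more ERβ expression in SW480 than in HT29. Sequencing depth cannot be read from scaled tracks, so no counting interval is given, and the spread between libraries is the error used. Libraries differed in enrichment. Over the 30544 bins tested genome-wide, the mean signal was 2.40 in HT29 mock 1 and 2.08 in HT29 ERβ 1 against 1.11 to 1.35 in the other 4 HT29 libraries, 1.51 in SW480 ERβ 1, 2.46 and 2.31 in SW480 ERβ 2 and 3, and 1.05 to 1.25 in SW480 mock. The inputs lay at 0.408 to 0.559. As a scale, the strongest promoter bin of NFKBIA, a direct NF-κB target, had group means of 10.3 (HT29 mock), 8.79 (HT29 ERβ), 7.43 (SW480 mock) and 12.5 (SW480 ERβ), and that of TNFAIP3, another such target, had 14.0, 12.8, 22.9 and 23.6.

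The 29 listed bins formed 13 regions, in which listed bins lay at most 1 bin apart, and each region is named by its gene and by the distance in kb of its strongest bin from the start of the canonical transcript. The sequences below are those of the strongest bins of 2 of the 3 regions listed in all 4 groups and of the TGFB1 intron. Those of SMAD3 +51.3 kb, SMAD3 +79.3 kb and both SKIL regions follow. All are GRCh38 bases 5′ to 3′, and capitals mark a match to the κB consensus on either strand.
TGFB1 +2.4 kb, chr19:41351401-41351600, plus strand: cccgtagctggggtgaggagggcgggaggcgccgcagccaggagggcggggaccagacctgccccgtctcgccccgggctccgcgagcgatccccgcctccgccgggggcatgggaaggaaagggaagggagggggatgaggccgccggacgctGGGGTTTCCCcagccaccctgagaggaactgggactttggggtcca
TGFB1 +45.2 kb, chr19:41308601-41308800, plus strand: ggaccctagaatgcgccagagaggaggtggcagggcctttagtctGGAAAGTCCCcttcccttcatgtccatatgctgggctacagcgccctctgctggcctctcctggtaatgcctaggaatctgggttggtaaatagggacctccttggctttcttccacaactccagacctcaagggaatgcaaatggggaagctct
SMAD3 +51.3 kb, chr15:67116801-67117000, plus strand: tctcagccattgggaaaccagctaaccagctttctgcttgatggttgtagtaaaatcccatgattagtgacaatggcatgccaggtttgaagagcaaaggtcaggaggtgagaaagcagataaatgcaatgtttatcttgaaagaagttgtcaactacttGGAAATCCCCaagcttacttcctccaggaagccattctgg
SMAD3 +55.7 kb, chr15:67121201-67121400, plus strand: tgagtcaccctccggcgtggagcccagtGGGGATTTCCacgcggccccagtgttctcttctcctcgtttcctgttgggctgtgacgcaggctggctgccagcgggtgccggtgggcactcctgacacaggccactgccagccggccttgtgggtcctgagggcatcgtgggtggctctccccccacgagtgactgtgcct
SMAD3 +79.3 kb, chr15:67144801-67145000, plus strand: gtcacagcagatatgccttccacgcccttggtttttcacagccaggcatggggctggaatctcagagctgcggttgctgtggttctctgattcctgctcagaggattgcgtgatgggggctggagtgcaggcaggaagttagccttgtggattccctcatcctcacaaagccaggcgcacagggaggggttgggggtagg
SKIL −1.2 kb, chr3:170356401-170356600, plus strand: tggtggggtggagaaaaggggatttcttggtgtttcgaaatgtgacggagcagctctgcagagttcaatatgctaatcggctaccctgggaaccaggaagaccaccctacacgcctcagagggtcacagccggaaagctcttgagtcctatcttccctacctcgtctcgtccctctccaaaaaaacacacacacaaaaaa
SKIL +0.6 kb, chr3:170358201-170358400, plus strand: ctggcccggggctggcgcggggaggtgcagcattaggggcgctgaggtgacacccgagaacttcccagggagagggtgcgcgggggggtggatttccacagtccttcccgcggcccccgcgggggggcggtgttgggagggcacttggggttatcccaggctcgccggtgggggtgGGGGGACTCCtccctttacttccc

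A κB match stood in 9 of the 13 regions, in TGFB1, TGFBR1, SMAD3 and SKIL, and none was found at TGFB2 +32.2 kb, SMAD3 +79.3 kb, SMAD7 −39.9 kb or SKIL −1.2 kb. By bins, 11 of the 29 (37.9%) held one, against 38.6% of the 12569 listed bins of the genome, 31.1% of the bins tested and 3.10% of every 500th bin of the genome. The AP-1 letters TGANTCA, searched on both strands like all motifs here, were in 6 of 29 (20.7%), against 12.5% of listed bins and 6.13% of every 500th bin. TGANTCA and the κB consensus shared 4 regions, all in SMAD3. In 3 of these they were 21 bases apart at SMAD3 +55.7 kb, 157 at SMAD3 +25.7 kb and 380 at SMAD3 +41.7 kb. The RUNX letters TGTGGT were in 5 of 29 (17.2%) against 15.6% of listed bins, and the FOXA letters TGTTTAC in 2 of 29 (6.90%) against 4.46%. A match of letters is a description of the sequence.

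Listing differed by gene and by group. SMAD3 held 14 of the 29 bins in a range of 956 bins, TGFB1 5 in 561 and SKIL 5 in 497. TGFBR1 held 3, and TGFB2 and SMAD7 1 each. TGFB3, TGFBR2 and INHBA had none. Over the groups, 18 bins at 3 of the genes were listed in HT29 mock, 12 at 2 genes in HT29 ERβ, 5 at 2 genes in SW480 mock, and 19 at 6 genes in SW480 ERβ. In the whole genome 0.0404%, 0.0268%, 0.00989% and 0.0632% of all bins were listed in those groups. The order of the counts rests on single libraries and on scaling, since HT29 mock had 11 listed bins without its library 1 and 27 without its library 2, and SW480 ERβ had 11 with libraries scaled to equal mean signal over tested bins (18, 14 and 7 in HT29 mock, HT29 ERβ and SW480 mock). The share of protein-coding genes with a listed bin in range was 21.5%, 15.7%, 7.56% and 31.6%, and 35.7% in any group, against 6 of the 9 genes here. Of the 13 regions, 10 lay in an intron of the host gene, and 3 were listed in all 4 groups, at TGFB1 and SMAD3. SW480 ERβ alone listed 5, at TGFB2, TGFBR1, SMAD3 (2 regions) and SMAD7. HT29 mock alone listed 1, at SKIL. Of the genome's 12569 listed bins, 9577 were listed in SW480 ERβ and 6123 in HT29 mock. How many were listed in 1 group alone was not counted, so these regions are not read as a trait of the genes. Among bins at 4 or more times their input, the values just inside and just outside the threshold of 2 were 2.12 and 1.99 in HT29 mock, 3.16 and 1.78 in HT29 ERβ, 2.60 and 1.76 in SW480 mock, and 2.00 and 1.96 in SW480 ERβ. Another 11, 9, 0 and 2 bins of those groups had a mean of 2 or more and failed on the input alone, so a region absent from 1 group's list may lie close to it. At their strongest bins, the 3 SW480 ERβ libraries stood above the 3 SW480 mock libraries in 9 of the 13 regions, against 37.4% of all tested bins (0.586% the other way), and the HT29 groups overlapped in all 13, against 1.19% and 3.66% of tested bins that did not. Within the same-numbered HT29 pairs, ERβ lay below mock in all 3 pairs in 7 of the 13 regions, 5 of SMAD3 and both of SKIL, and above it in all 3 pairs in none, against 26.5% and 6.27% of all tested bins. No HT29 bin of the 9 genes was called with or without the pairs as a block, against 0.0196% and 0% of all tested bins. SW480 mock lay below HT29 mock without overlap in 5 regions (33.2% of tested bins, 11.5% above), and SW480 ERβ lay above HT29 ERβ in 2 and below it in 2 (30.2% and 12% of tested bins). Since the listing used these values and the genes were chosen with earlier results of these data known, the counts and shares are descriptions.

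**Figure D1:**
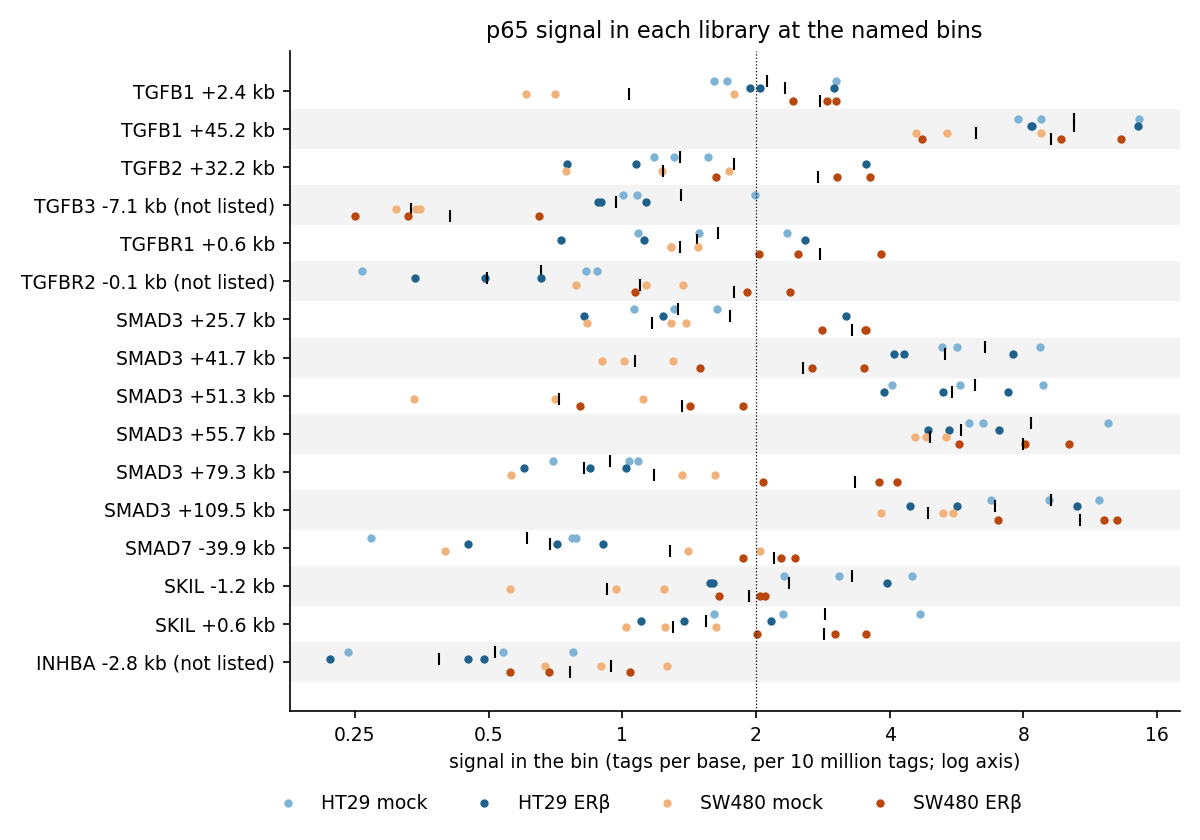
Signal (tags per base per 10000000 tags, log axis) in each library at the bin read for each of the 13 regions and for the 3 genes without a listed bin. Points are libraries, 3 per group, black ticks are group means, and the dotted line is the listing threshold of 2. TGFB1 +45.2 kb, SMAD3 +55.7 kb and SMAD3 +109.5 kb lie above 3.8 in all 12 libraries, and the INHBA bin stays at or below 1.26 in all 12.

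TGFB1, which encodes the most widely expressed TGF-beta ligand, had the strongest bin of the 9 genes by the mean over the 12 libraries (9.06, against 7.93 at SMAD3). In SW480 ERβ the strongest bin was in SMAD3 (10.7 against 9.24). The bin TGFB1 +45.2 kb (chr19:41308601-41308800) lay beyond the end of the canonical transcript, inside the longest annotated extent of the gene, in a lncRNA on the minus strand, and at −1472 bp from the start of CCDC97, which is nearer than the start of TGFB1. The signal was 14.6, 7.77 and 8.78 in HT29 mock, 14.5, 8.36 and 8.31 in HT29 ERβ, 4.58, 8.77 and 5.37 in SW480 mock, and 4.73, 13.3 and 9.73 in SW480 ERβ. The groups overlapped throughout, with means 12.3, 15.3, 6.85 and 22.8 times the matched inputs, and no comparison between groups passed the test at this bin (limma, adjusted p from 0.21 to 1). At the edge of the region, TGFB1 +45.6 kb, listed in both HT29 groups, and the unlisted TGFB1 +45.8 kb were called lower in SW480 mock than in HT29 mock (−0.90 and −0.83, adjusted p = 0.049 and 0.02). Each of these calls was lost without HT29 mock 1, SW480 mock 1 or SW480 mock 3 (highest adjusted p = 0.30 and 0.16), and that at +45.6 kb also with the replicate block (0.053). The call at +45.6 kb was lost with the matched input subtracted too. The region was listed in all 4 groups, with 3, 3, 2 and 2 bins.

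Nearer to the ligand's own start, TGFB1 +2.4 kb (chr19:41351401-41351600) lay in intron 1. HT29 mock had 3.02, 1.61 and 1.72, HT29 ERβ 3.00, 2.04 and 1.94, SW480 mock 0.707, 0.608 and 1.79, and SW480 ERβ 2.42, 3.03 and 2.89. The means were 4.24, 3.08, 1.05 and 3.54 times the matched inputs in HT29 mock, HT29 ERβ, SW480 mock and SW480 ERβ. This bin was therefore listed in HT29 mock alone, and the adjoining bin, TGFB1 +2.2 kb, in SW480 ERβ alone. Every SW480 ERβ library was above every SW480 mock library, while the HT29 groups overlapped. SW480 ERβ was higher than SW480 mock by 0.94 on the scale of log2(signal + 1) (SE 0.31, 95% interval 0.32 to 1.56, adjusted p = 0.028, limma with Benjamini-Hochberg adjustment over all bins tested), where the median of all bins tested was 0.38. With libraries centred on their median the difference was 0.51 (adjusted p = 0.14). The call was also lost without SW480 mock 1, SW480 mock 2, SW480 ERβ 2 or SW480 ERβ 3, with differences of 0.79 to 1.19 over the 6 libraries left out in turn. In HT29 the difference was 0.11 (interval −0.51 to 0.73, adjusted p = 1). The difference between the lines' ERβ effects was 0.83 (interval −0.05 to 1.70, adjusted p = 0.22).

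**Figure D2:**
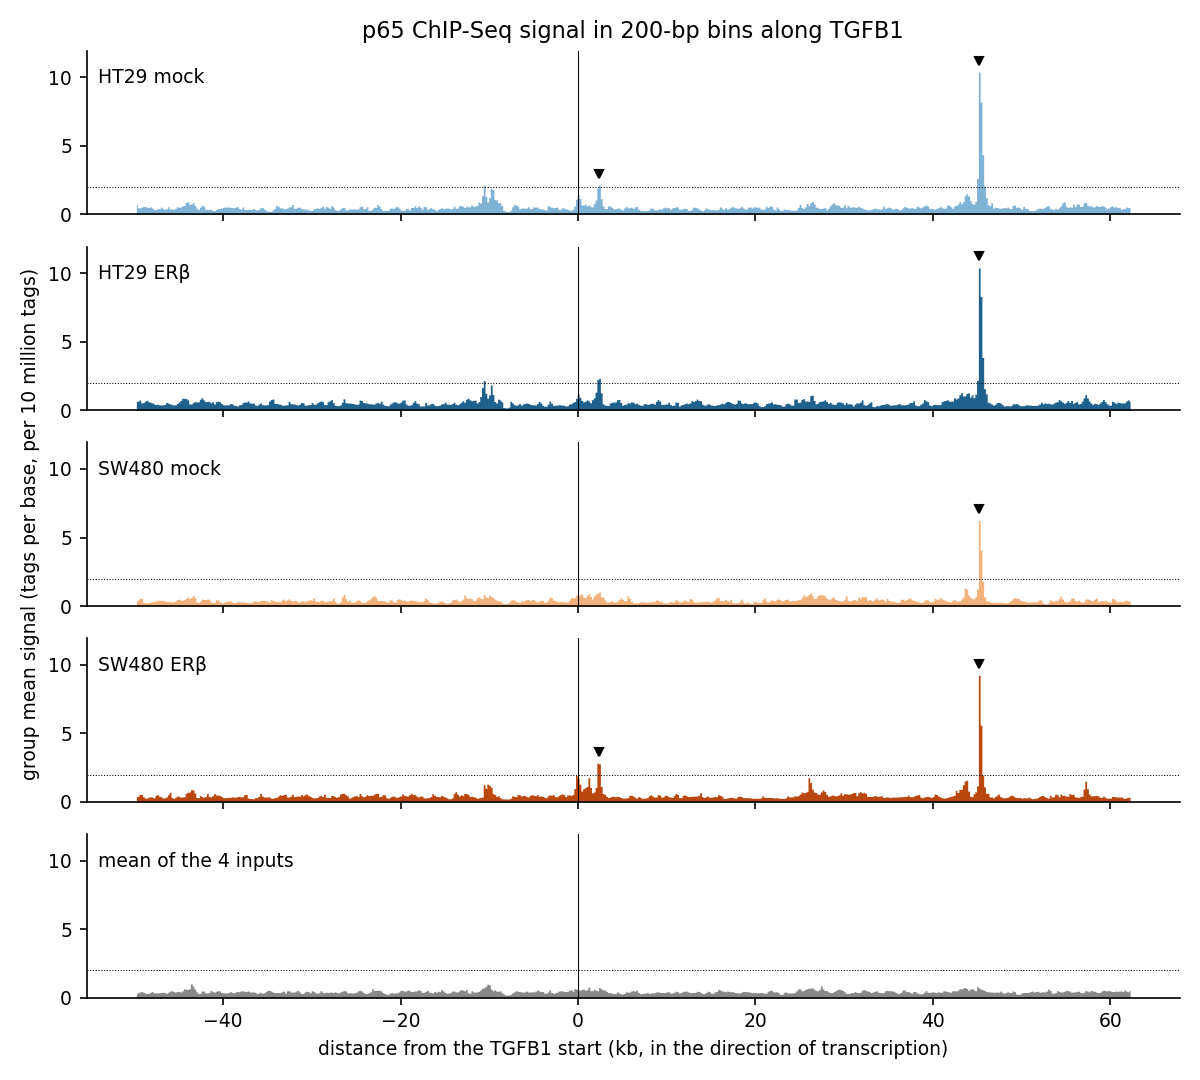
Mean p65 signal of each group (3 libraries each) and of the 4 inputs in 200-bp bins by distance from the TGFB1 start, in kb in the direction of transcription, with the threshold of 2 dotted and triangles over regions listed in that group. The peak at +45.2 kb stands in all 4 groups, and the one at +2.4 kb is 2.12, 2.33, 1.03 and 2.78 in HT29 mock, HT29 ERβ, SW480 mock and SW480 ERβ.

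TGFB2 and TGFB3, the other TGF-beta isoforms, carried little signal. TGFB2 +32.2 kb (chr1:218377401-218377600, intron 1) was listed in SW480 ERβ alone, at 1.63, 3.60 and 3.04, against 0.746, 1.74 and 1.23 in SW480 mock, 1.56, 1.31 and 1.18 in HT29 mock, and 3.54, 1.07 and 0.750 in HT29 ERβ. The groups overlapped in both lines, and the ERβ difference in SW480 was 0.73 (SE 0.31, adjusted p = 0.084, limma). The bin holds 2 AP-1 matches and no κB match. The highest tested bin of TGFB3, TGFB3 −7.1 kb (chr14:75989001-75989200), was not listed in any group and lies inside IFT43, 3337 bp from the start of that gene. It holds the κB match gtcttgatttGGGAATTCCCttccttggca (chr14:75989104-75989113 in capitals). HT29 mock had 1.99, 1.01 and 1.08, HT29 ERβ 0.880, 1.13 and 0.894, SW480 mock 0.350, 0.343 and 0.310, and SW480 ERβ 0.650, 0.330 and 0.25. Every HT29 library was above every SW480 library. The mock lines differed by −0.80 (SW480 minus HT29, SE 0.21, adjusted p = 0.0027, limma), and by −0.52 (adjusted p = 0.038) with centred libraries. The bin met the filter for testing only with HT29 mock included (mean of the other 3 groups 0.571, inputs 0.312), which favours this difference.

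INHBA encodes the βA subunit of activins and inhibin A, ligands that also signal through SMAD2 and SMAD3. Its highest bin, INHBA −2.8 kb (chr7:41705801-41706000), averaged 0.518 ± 0.267 (HT29 mock), 0.386 ± 0.145 (HT29 ERβ), 0.942 ± 0.297 (SW480 mock) and 0.762 ± 0.251 (SW480 ERβ; SD, n = 3), beside inputs of 0.520 to 0.631, and no bin of INHBA met the filter for testing.

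Of the receptors, TGFBR1, the type I receptor kinase, was listed in SW480 ERβ alone. TGFBR1 +0.6 kb (chr9:99105601-99105800) lay in intron 1 and was the strongest of 3 adjoining listed bins, which hold 2 κB matches. SW480 ERβ had 2.04, 3.82 and 2.49, SW480 mock 1.48, 1.29 and 1.29, HT29 mock 2.35, 1.49 and 1.08, and HT29 ERβ 2.58, 1.12 and 0.729. The SW480 groups did not overlap, and the HT29 groups did. The ERβ difference in SW480 was 0.66 (SE 0.30, adjusted p = 0.12, limma), which did not pass, and in HT29 it was −0.14 (adjusted p = 1).

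TGFBR2, the type II receptor that binds the ligand first, had no listed and no tested bin. Its highest bin (chr3:30606401-30606600) lies at its own promoter. The values were 0.827, 0.260 and 0.879 in HT29 mock, 0.655, 0.490 and 0.341 in HT29 ERβ, 1.37, 1.13 and 0.788 in SW480 mock, and 1.07, 2.38 and 1.91 in SW480 ERβ. The SW480 ERβ mean of 1.79 was 3.08 times its input, and the other groups stood at 0.877 to 1.35 times theirs.

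SMAD3, the receptor-activated transducer, had the most p65 regions and also the longest range of the 9 genes, 956 bins. All 6 lay inside the gene, 5 in intron 1 and the region SMAD3 +109.5 kb in intron 5. Some were present in both lines and others were high in 1 line.
SMAD3 +55.7 kb and SMAD3 +109.5 kb were listed in all 4 groups. At SMAD3 +55.7 kb (chr15:67121201-67121400) the signal was 12.4, 6.02 and 6.47 in HT29 mock, 7.05, 4.89 and 5.43 in HT29 ERβ, 4.82, 5.36 and 4.57 in SW480 mock, and 5.73, 10.1 and 8.06 in SW480 ERβ. SMAD3 +109.5 kb had 11.8, 6.76 and 9.12, then 10.6, 5.68 and 4.44, then 5.27, 3.83 and 5.55, and then 7.02, 13.0 and 12.2 in the same order of groups. At both, every SW480 ERβ library was above every SW480 mock library and the HT29 groups overlapped. No test passed at either bin. Of the listed bins beside them, SMAD3 +55.5 kb and both neighbours of SMAD3 +109.5 kb were called lower in SW480 mock than in HT29 mock (−0.97, −1.0 and −0.92, adjusted p = 0.041, 0.025 and 0.017, limma). These calls were lost without any 1 of 5, 4 and 3 of the 6 libraries in turn, HT29 mock 1, SW480 mock 1 and SW480 mock 3 each time (highest adjusted p = 0.13, 0.13 and 0.081), and that at +55.5 kb also with the replicate block (0.062). With the matched input subtracted, the calls at +55.5 kb and at the upstream neighbour, SMAD3 +109.3 kb, were also lost. The downstream neighbour, SMAD3 +109.7 kb, met the filter for testing only with HT29 mock included (mean of the other 3 groups 1.62, inputs 0.863), which favours its call. At the strongest bins the ERβ difference in SW480 was 0.57 (SE 0.38, adjusted p = 0.28) at SMAD3 +55.7 kb and 0.96 (SE 0.39, adjusted p = 0.070, limma) at SMAD3 +109.5 kb. The group means at SMAD3 +109.5 kb were 9.24, 6.90, 4.88 and 10.7, each below that of the NFKBIA promoter in the same group.

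In SMAD3 +41.7 kb and SMAD3 +51.3 kb the lines differed. SMAD3 +41.7 kb (chr15:67107201-67107400) had 8.71, 5.25 and 5.67 in HT29 mock and 7.56, 4.31 and 4.10 in HT29 ERβ, against 1.01, 0.901 and 1.30 in SW480 mock and 1.5, 2.67 and 3.49 in SW480 ERβ. SMAD3 +51.3 kb (chr15:67116801-67117000) had 8.85, 4.04 and 5.76 in HT29 mock and 7.40, 3.88 and 5.27 in HT29 ERβ, against 0.707, 0.340 and 1.11 in SW480 mock and 0.804, 1.42 and 1.87 in SW480 ERβ. At both, all 6 HT29 libraries stood above all 6 SW480 libraries. The SW480 mock value minus that of HT29 mock was −1.84 at SMAD3 +41.7 kb (SE 0.36, adjusted p = 6.1e-05) and −2.04 at SMAD3 +51.3 kb (SE 0.34, adjusted p = 5.7e-06, limma). Both calls held without each of the 6 libraries, with centred libraries (−1.56 and −1.76) and with the matched input subtracted (−1.975 and −2.493). The bin SMAD3 +51.3 kb was listed in the HT29 groups alone, and SMAD3 +41.7 kb in every group but SW480 mock. That choice favours these differences. At SMAD3 +41.7 kb the inputs were 1.275 in HT29 mock, 0.928 in HT29 ERβ, 0.51 in SW480 mock and 0.34 in SW480 ERβ. The group means there were 5.13, 5.73, 2.10 and 7.51 times these inputs, so by this ratio SW480 ERβ lay above HT29 ERβ. At SMAD3 +51.3 kb the ratios were 8.46, 8.56, 0.914 and 4.01 in the same order. Between the ERβ derivatives, SMAD3 +51.3 kb differed by −1.45 (SE 0.34, adjusted p = 0.00046), and SMAD3 +41.7 kb by −0.83 (SE 0.36, adjusted p = 0.056), which did not pass. The listed bin beside it, SMAD3 +41.5 kb, was called lower in SW480 ERβ than in HT29 ERβ (−1.08, SE 0.33, adjusted p = 0.0059), and SMAD3 +41.9 kb was called higher in SW480 ERβ than in SW480 mock (0.88, SE 0.32, adjusted p = 0.047). The latter was lost with centred libraries (0.45, adjusted p = 0.19) and without any 1 of the SW480 libraries other than SW480 ERβ 1 (highest adjusted p = 0.23).

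SMAD3 +25.7 kb and SMAD3 +79.3 kb were listed in SW480 ERβ alone. SMAD3 +25.7 kb (chr15:67091201-67091400) had 2.81, 3.55 and 3.53 in SW480 ERβ against 1.29, 0.832 and 1.39 in SW480 mock, 1.63, 1.31 and 1.06 in HT29 mock, and 3.19, 1.24 and 0.820 in HT29 ERβ. SMAD3 +79.3 kb (chr15:67144801-67145000), which overlaps a lncRNA on the minus strand, had 2.07, 3.79 and 4.14 in SW480 ERβ against 1.62, 0.562 and 1.36 in SW480 mock, 0.697, 1.09 and 1.04 in HT29 mock, and 0.60, 1.02 and 0.844 in HT29 ERβ. At SMAD3 +79.3 kb the 3 SW480 ERβ libraries were above the other 9. The listing picked bins high in 1 group, which favours a difference there, and SMAD3 +79.3 kb also met the filter for testing only with SW480 ERβ included (mean of the other 3 groups 0.980, inputs 0.562). SW480 ERβ was higher than SW480 mock by 0.99 at SMAD3 +25.7 kb (SE 0.30, adjusted p = 0.016) and by 0.99 at SMAD3 +79.3 kb (SE 0.28, adjusted p = 0.0086, limma). With centred libraries both fell to 0.56 and did not pass (adjusted p = 0.097 and 0.11). SMAD3 +25.7 kb was also lost without SW480 mock 1 or 2 or SW480 ERβ 2 or 3, and SMAD3 +79.3 kb without SW480 mock 2 or SW480 ERβ 2 or 3, over ranges of 0.87 to 1.07 and 0.77 to 1.22. The HT29 differences were 0.15 and −0.09 (adjusted p = 1 for both), and the difference between the lines' ERβ effects did not pass at either (adjusted p = 0.20 and 0.079). Between the ERβ derivatives, SW480 was higher than HT29 by 1.22 at SMAD3 +79.3 kb (SE 0.28, adjusted p = 0.00029) and by 0.73 at SMAD3 +25.7 kb (SE 0.30, adjusted p = 0.047). The latter was lost with centred libraries (adjusted p = 0.055), with the replicate block (0.056), in a fit on the 6 libraries compared (0.091) and without HT29 ERβ 2 or 3 or SW480 ERβ 2 or 3 (highest adjusted p = 0.30).

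**Figure D3:**
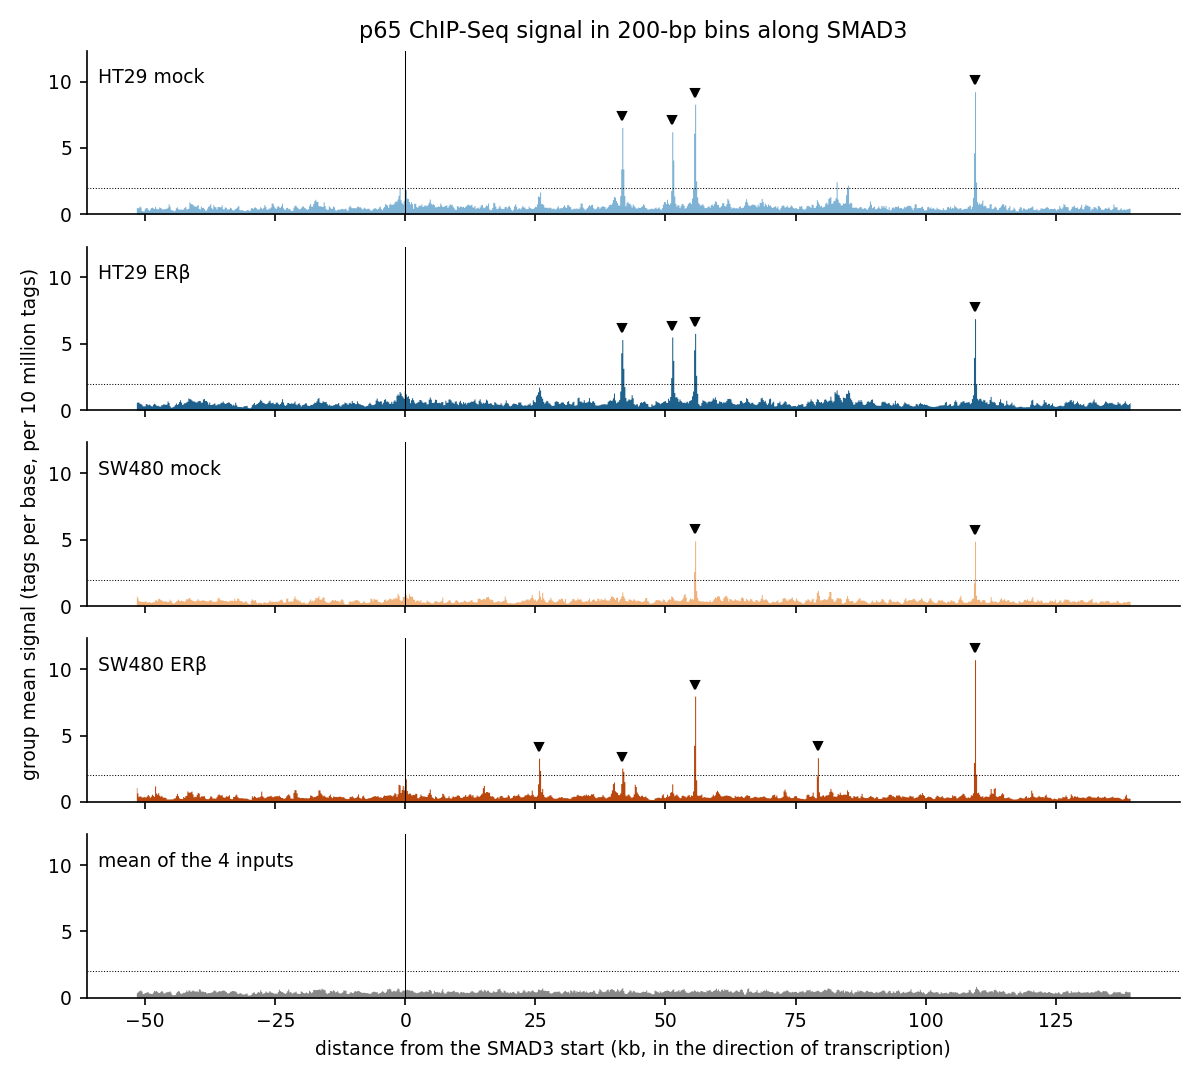
Mean p65 signal of each group (3 libraries each) and of the 4 inputs in 200-bp bins by distance from the SMAD3 start, in kb in the direction of transcription, with the threshold of 2 dotted and triangles over regions listed in that group. The peaks at +55.7 and +109.5 kb stand in all 4 groups, those at +41.7 and +51.3 kb reach 5.32 to 6.54 in the HT29 groups and 0.720 to 2.55 in the SW480 groups, and the one at +79.3 kb reaches 3.33 in SW480 ERβ.

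SMAD7 binds the activated type I receptor and ends signalling. Its only listed bin, SMAD7 −39.9 kb (chr18:48990801-48991000), lies between genes and holds an AP-1 match and no κB match. The signal was 1.87, 2.28 and 2.44 in SW480 ERβ, 0.399, 1.41 and 2.04 in SW480 mock, 0.787, 0.770 and 0.273 in HT29 mock, and 0.711, 0.904 and 0.450 in HT29 ERβ. The SW480 groups overlapped, and the ERβ libraries of SW480 were above those of HT29. The bin was listed in SW480 ERβ alone, and that choice favours a difference there. SW480 ERβ was higher than HT29 ERβ by 0.93 (SE 0.26, adjusted p = 0.0029, limma) and by 0.68 with centred libraries (adjusted p = 0.0057), while the ERβ difference in SW480 was 0.55 (SE 0.26, adjusted p = 0.12). In 2 unlisted bins of SMAD7, at −0.5 and +8.1 kb, SW480 ERβ was called higher than SW480 mock, by 0.56 and 0.65, at group means of 0.820 and 1.08 in SW480 ERβ. The first met the filter for testing only with SW480 ERβ included (mean of the other 3 groups 0.446), which favours this call. With centred libraries both calls were lost (0.13 and 0.22, adjusted p = 0.74 and 0.51), as they were without SW480 mock 1, SW480 mock 3, SW480 ERβ 2 or SW480 ERβ 3, and that at −0.5 kb also without SW480 mock 2 (highest adjusted p = 0.24 and 0.18).

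SKIL, the SMAD corepressor, had 5 listed bins around its promoter in HT29 mock and none in HT29 ERβ or SW480 mock. Of these, 2 had means of 2.37 and 2.28 in HT29 ERβ and failed there on the input, which was 0.770 and 0.906 against 0.696 and 0.472 in HT29 mock. The HT29 ERβ input was made for another series, so these inputs come from different experiments. At SKIL −1.2 kb (chr3:170356401-170356600) the signal was 4.50, 2.31 and 3.07 in HT29 mock, 3.95, 1.57 and 1.60 in HT29 ERβ, 0.970, 1.24 and 0.560 in SW480 mock, and 1.65, 2.10 and 2.04 in SW480 ERβ. All 3 HT29 mock libraries were above the SW480 libraries of both conditions, and the HT29 groups overlapped. The region was listed in HT29 mock alone, and that choice favours a difference there. The SW480 mock value minus that of HT29 mock was −1.14 (SE 0.32, adjusted p = 0.0042, limma), and −0.86 with centred libraries (adjusted p = 0.001). The ERβ difference was −0.39 in HT29 (adjusted p = 1) and 0.62 in SW480 (adjusted p = 0.16).
At SKIL +0.6 kb (chr3:170358201-170358400, intron 1) HT29 mock had 4.67, 1.61 and 2.30, HT29 ERβ 2.16, 1.38 and 1.10, SW480 mock 1.25, 1.02 and 1.63, and SW480 ERβ 2.01, 3.01 and 3.53. The bin was listed in HT29 mock and SW480 ERβ. The ERβ difference was −0.54 in HT29 (interval −1.17 to 0.09) and 0.73 in SW480 (interval 0.10 to 1.36), and their difference was 1.27 (SE 0.45, adjusted p = 0.069, limma), which did not pass.

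**Figure D4:**
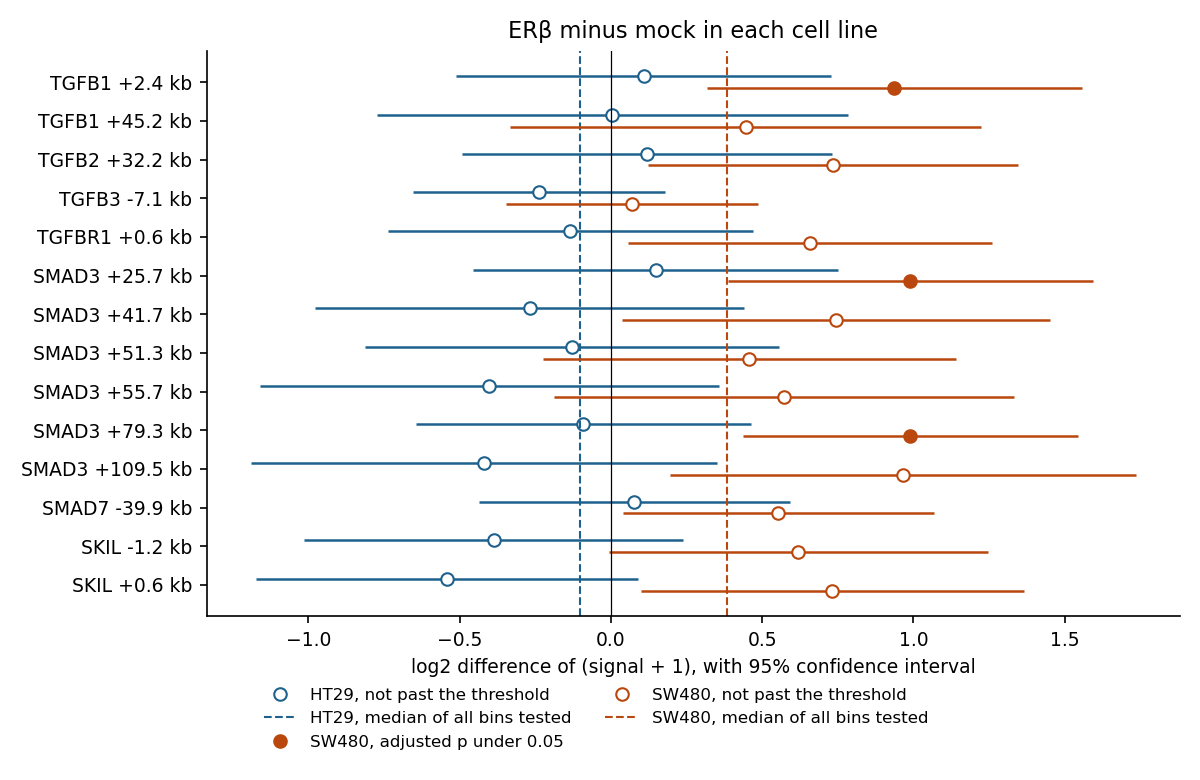
Difference of log2(signal + 1) between ERβ and mock in HT29 (blue) and SW480 (orange) at the 14 tested bins, with the 95% confidence interval from the limma fit over 12 libraries, filled points at adjusted p under 0.05, and dashed lines at the median of all bins tested in each line. The 3 filled points are TGFB1 +2.4 kb, SMAD3 +25.7 kb and SMAD3 +79.3 kb in SW480.

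ERβ was then compared with mock over all bins of the 9 genes that passed a filter blind to group, a mean over the 12 ChIP libraries of at least 0.5 and of at least 2 times the mean input. This left 69 bins at 7 genes, with none at TGFBR2 and INHBA, and 28 of the 29 listed bins among them. The filter reads no group labels, but a bin can meet it through 1 high group alone, and a difference at such a bin is favoured by the choice of bins. In HT29, none of the 69 was called, and 0% of the genome's 30544 tested bins in either direction (limma). An unadjusted p under 0.05 was found at 3 of the 69 and at 614 of the 30544. The median difference was −0.13 over the 69 and −0.10 over all tested bins.
In SW480, 8 of 69 bins (11.6%) were called higher in ERβ and none lower, against 17% and 0.0131% genome-wide. The 8 were 4 bins of SMAD3, 2 of TGFB1 and 2 of SMAD7, of which SMAD3 +79.3 kb and SMAD7 −0.5 kb met the filter only with SW480 ERβ, and the medians were 0.37 over the 69 and 0.38 over all bins. The count rested on single libraries and on the fit. It was 19 with the matched input subtracted (27.5%, all bins 31.1%), 17 in a fit on the 6 SW480 libraries (24.6%, all bins 23.1%) and 30 with the replicate block (43.5%, all bins 42.2%). It was 0 without SW480 ERβ 2 (all bins 7.8%), 1 without SW480 ERβ 3 (all bins 8.39%) and 1 without SW480 mock 1 (all bins 7.93%). It was 2 without SW480 mock 2 (all bins 9.19%) and 5 without SW480 mock 3 (all bins 12.7%). Without SW480 ERβ 1 it was 19 (27.5%, all bins 29.8%). With libraries centred on their median it was 0 (all bins 6.33%). Centred libraries together with the block gave 6 higher and 3 lower (13.0%, all bins 15.3%). SW480 ERβ 2 and 3 are also the SW480 libraries with the highest mean signal over all tested bins, and the part of this in the result was not tested.

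The ERβ effects of the lines differed at 1 of the 69 bins (1.45%, against 5.99% genome-wide called higher and 0% lower). It was SKIL −1.4 kb (chr3:170356201-170356400), at the promoter edge of the gene. HT29 mock had 4.06, 1.97 and 1.95, HT29 ERβ 2.47, 1.09 and 0.848, SW480 mock 0.330, 0.829 and 0.410, and SW480 ERβ 0.831, 1.58 and 1.95. The ERβ difference was −0.58 in HT29 (adjusted p = 1) and 0.68 in SW480 (adjusted p = 0.085), and the effect in SW480 exceeded that in HT29 by 1.25 (SE 0.40, interval 0.45 to 2.05, adjusted p = 0.046, limma). The call was lost with centred libraries (0.72, adjusted p = 0.20) and without any 1 of 8 of the 12 libraries, HT29 mock 1, HT29 ERβ 2 and 3, SW480 mock 1, 2 and 3, and SW480 ERβ 2 and 3 (highest adjusted p = 0.16). Over the 69 bins the count was then 0 in each of those cases (all bins 1.37% to 4.47%). It was 17 without HT29 ERβ 1 (24.6%, all bins 19.7%) and 8 without SW480 ERβ 1 (11.6%, all bins 16.8%). It was 2 without HT29 mock 2 (2.9%, all bins 6.52%) and 1 without HT29 mock 3 (1.45%, all bins 4.02%). With the replicate number as a block it was 25 of 69 (36.2%, against 34.3% of all tested bins), and with the matched input subtracted 12 (17.4%, against 21.4%). The same-numbered HT29 libraries deviated together, of which only the number 1 pair stood apart from the other pairings. Those of SW480 had correlations of deviations of 0.25, 0.0998 and 0.15.

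**Figure D5:**
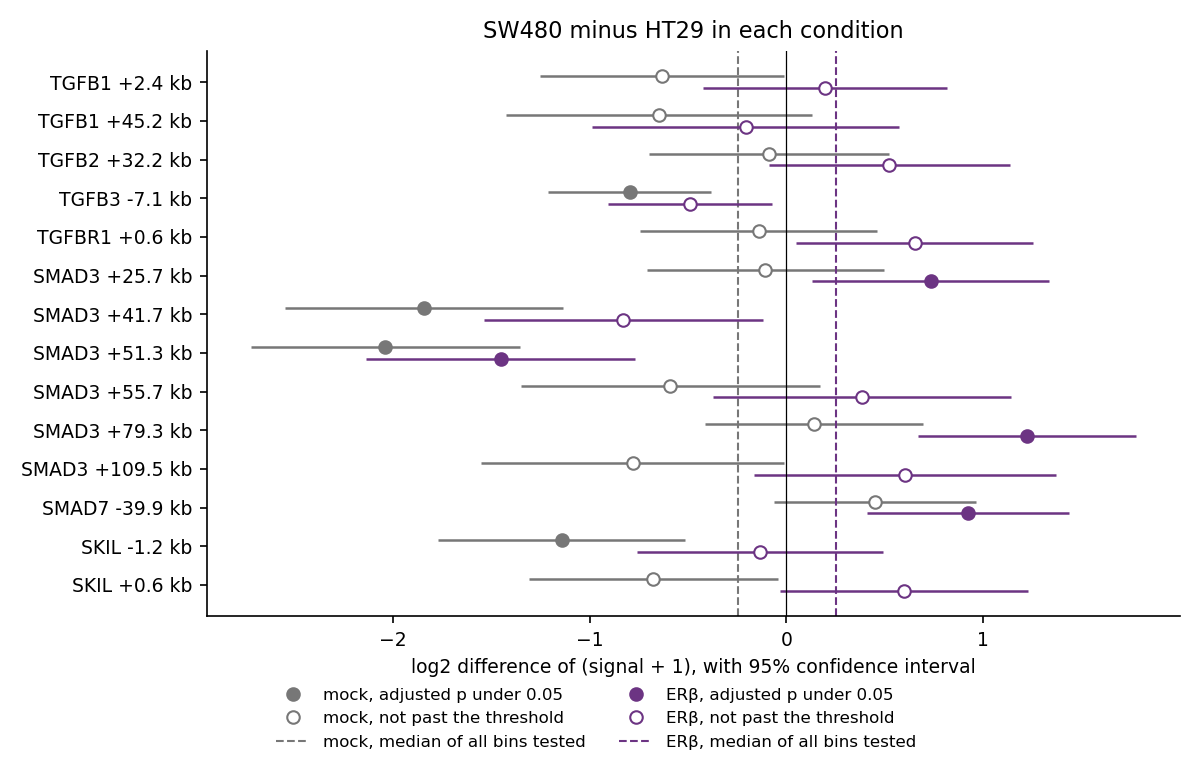
Difference of log2(signal + 1) between SW480 and HT29 in mock (grey) and ERβ (purple) cells at the 14 tested bins, with the 95% confidence interval from the limma fit, filled points at adjusted p under 0.05 and dashed lines at the median of all bins tested. In mock cells the filled points all lie below 0, and SMAD3 +51.3 kb lies at −2.04 in mock and −1.45 in ERβ.

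The lines were then compared within each condition. Of the 69 bins in mock cells, 26 (37.7%) were called lower in SW480 mock than in HT29 mock and none higher, against 22% lower and 5.94% higher genome-wide. They were 14 of 29 tested bins of SMAD3, 5 of 11 of SKIL, 4 of 12 of TGFB1, 2 of 11 of SMAD7 and the 1 of TGFB3. Of the 26, 11 met the filter only with HT29 mock included, 6 of them in SMAD3, 2 in TGFB1 and 1 each in SKIL, SMAD7 and TGFB3. The median difference was −0.62 over the 69 and −0.25 over all tested bins. With centred libraries 19 were called lower and 2 higher, against 16.4% and 19.1% genome-wide. The count was 12 without HT29 mock 1 (17.4%, all bins 15.4% in both directions together). It was 16 without SW480 mock 3 (23.2%, all bins 19.8% in both directions together).
Between the ERβ derivatives 5 bins were called higher in SW480 (7.25%) and 8 lower (11.6%), against 28.8% and 9.43% genome-wide. The higher bins were 3 of SMAD7 and 2 of SMAD3, and the lower ones 6 of SMAD3, 1 of TGFB2 and 1 of SKIL. Of the 5 higher bins, 3 met the filter only with SW480 ERβ included, SMAD7 −39.7 kb, SMAD7 −40.1 kb and SMAD3 +79.3 kb, and of the 8 lower ones, 3 did so only with HT29 ERβ, SMAD3 +82.5 kb, SMAD3 +82.9 kb and SKIL −49.8 kb. The medians were −0.11 over the 69 and 0.25 over all tested bins. With centred libraries the split was 2 higher and 27 lower, against 24% and 22.5% genome-wide. The count of 13 became 8 without HT29 ERβ 2 (11.6%, all bins 31.4%) and 8 without SW480 ERβ 3 (11.6%, all bins 28.9%). The balance of directions rested on HT29 ERβ 1, without which 11 were higher and 5 lower with a median of 0.16. The counts and the median over all 30544 tested bins moved the same way in that fit, to 10431 higher and 1588 lower with a median of 0.40.

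A further list, made with earlier results of these data known, was read in the same way. It held 48 other genes of the pathway (SMADs, receptors, ligands, latency proteins, antagonists and target genes). Of these, 25 had a listed bin, 17 of them in HT29 mock, 10 in HT29 ERβ, 4 in SW480 mock and 21 in SW480 ERβ, against 35.7% of protein-coding genes in any group and 21.5%, 15.7%, 7.56% and 31.6% in those groups. In SW480, 30 of their 178 tested bins (16.9%) at 14 genes were called higher in ERβ and none lower, against 17% and 0.0131% of all tested bins. In HT29 none of the 178 was called, against 0% of all tested bins. An unadjusted p under 0.05 (limma) was found there at 2 of the 178, against 614 of all 30544 tested bins. The strongest bin of LTBP3, a latent TGF-beta binding protein, lay 11.7 kb upstream of it at the promoter of ZNRD2, those of SKI and GDF15 at the promoters of FAAP20 and PGPEP1, and that of the SMAD repressor TGIF2 at its own promoter. SMAD6, an inhibitory SMAD, had 12.4, 5.42 and 6.33 in HT29 mock at +63.9 kb in an intron, 11.2, 4.87 and 2.24 in HT29 ERβ, 1.28, 1.78 and 2.96 in SW480 mock, and 6.41, 8.34 and 7.94 in SW480 ERβ. There the ERβ effect passed in SW480 (1.54, SE 0.40, adjusted p = 0.0039), and so did its difference from that in HT29 (2.02, SE 0.56, adjusted p = 0.021, limma). PMEPA1, a target gene that restrains SMAD signalling, had 8.56, 16.7 and 16.8 in SW480 ERβ at −38.7 kb against 4.07, 5.74 and 6.93 in SW480 mock and 1.32 to 3.82 in the 6 HT29 libraries. The ERβ difference in SW480 was 1.16 (SE 0.38, adjusted p = 0.025), and its difference from that in HT29 did not pass (0.93, adjusted p = 0.25). At SMURF1, a ubiquitin ligase for receptors and SMADs, and at LRRC32, which tethers latent TGF-beta, the strongest bin also rose in SW480 ERβ (1.30 and 1.44, adjusted p = 0.0091 and 0.0048, limma). The difference from the effect in HT29 passed at SMURF1 (1.75, adjusted p = 0.032) and not at LRRC32 (1.54, adjusted p = 0.066, limma). Only the main fit is given for these genes. With centred libraries, the SW480 calls over all tested bins fell from 17.0% to 6.33%, both directions together. In the main fit, the ERβ difference in SW480 did not pass at LTBP3, LEFTY1, TGIF2, SKI, ID1 or GDF15, with values of 0.47 to 0.91.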

How the data were processed

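Per the labels and the study's methods, the authors mapped p65 ChIP-Seq reads to GRCh38 with STAR and made 1 HOMER track per library. The deposited values are signal (coverage), the density of tags extended to 100 bp and scaled to 10000000 tags, so sequencing depth is not known from them. Stretches under 0.05 are absent from the tracks and were read as 0, and stretches at densities of 0.1 to 0.3 had a median length of 653 to 978 bp in the ChIP libraries, which blurs low bins. Inputs of the ERβ cells were made for another series.

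Track values were averaged in 200-bp bins (Python 3.11.15, numpy 2.4.6) and annotated with GENCODE 44. Since scaled coverage is no count, limma 3.58.1 (R 4.3.3, trend) was fitted to log2(signal + 1) of the 12 ChIP libraries over all 30544 tested bins, with Benjamini-Hochberg adjustment and a threshold of 0.05, after a check on simulated data. The log scale with a pseudocount understates changes of low bins. Each region was read at its bin with the highest mean over the 12 libraries, a gene with no listed bin at its highest tested bin or else its highest bin, and the 10 other pathway genes with the highest mean over the 12 libraries at a listed bin were named, plus 3 after their values were seen (BMP7, NEDD4L and SMAD1). Members and lists were chosen with earlier results of these data known. Same-numbered HT29 mock and ERβ libraries deviated together (r of deviations 0.51, 0.20 and 0.21 over tested bins), although mock 2 and mock 3 were about as close to each other's ERβ library (0.23 and 0.16), so that only the number 1 pair stood apart, and a fit with the replicate number as a block called none of the 69 bins in HT29 either. Some items are not reported here. The alternatives are given in the closing section.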

Additional observations from a re-analysis of the deposited data

Results flagged for a closer look

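SKIL −1.4 kb was singled out because the ERβ effect differed between the lines by a test of the difference itself. The effect in SW480 minus that in HT29 was 1.25 on the scale of log2(signal + 1) (adjusted p = 0.046, limma). The group means were 2.66 in HT29 mock, 1.47 in HT29 ERβ, 0.523 in SW480 mock and 1.46 in SW480 ERβ, against inputs of 0.390, 0.487, 0.468 and 0.354. Leaving out 1 library in turn moved the difference between 0.99 and 1.52, with adjusted p from 0.0057 to 0.16, and 8 of the 12 left-out libraries ended the call.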

How the results depend on the processing

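The 69 bins of the 9 genes gave 8 calls for ERβ minus mock in SW480, 1 for the difference between the lines' ERβ effects, 26 for the mock lines and 13 for the ERβ derivatives (11.6%, 1.45%, 37.7% and 18.8%, against 17.0%, 5.99%, 28.0% and 38.2% of all tested bins). With libraries centred on their median these became 0, 0, 21 and 29 (all bins 6.33%, 1.37%, 35.5% and 46.5%). With the matched input subtracted they were 19 in SW480 and 12 for the difference of effects (27.5% and 17.4%, all bins 31.1% and 21.4%). Bins with a mean of at least 1 gave 8 for the ERβ derivatives (15.4%, all bins 41.0%). Listed bins alone gave 4 for the difference of effects, 13 for the mock lines and 8 for the ERβ derivatives (13.8%, 44.8% and 27.6%, all bins 19.3%, 37.7% and 57.0%). The difference of effects had 0 calls without the mean-variance trend (all bins 5.11%), and SW480 had 17 in a fit on its 6 libraries (24.6%, all bins 23.1%). Leaving out 1 library at a time gave 0 to 19 in SW480, 0 to 17 for the difference of effects, 12 to 33 for the mock lines and 8 to 16 for the ERβ derivatives. Over all tested bins the same fits called 7.8% to 29.8%, 1.93% to 19.7%, 15.4% to 28.1% and 28.8% to 41.1%, in that order. HT29 had 0 calls under each of these settings, against 0% to 0.00982% of all tested bins.

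The replicate block raised the SW480 count to 30 and the difference of effects to 25 (43.5% and 36.2%, all bins 42.2% and 34.3%). At single named bins 18 values newly passed and 1 was lost under it. Where a named bin is said above not to pass, this refers to the fit without a block unless another is named. The main fit held no block in either line, since the study's methods name none. In SW480 the correlations of deviations within numbers were 0.25, 0.0998 and 0.15. Each SW480 mock library correlated best with the ERβ library of its number. Chosen after seeing the data, the fit without both HT29 libraries of number 1 gave 23 in SW480, 8 for the difference of effects and 22 for the ERβ derivatives, 15 higher and 7 lower (33.3%, 11.6% and 31.9%, all bins 30.7%, 10.5% and 46.5%), and the fit with centred libraries and the replicate block gave 9 in SW480, 6 higher and 3 lower, 2 for the difference of effects, 1 higher and 1 lower, and 30 for the ERβ derivatives (13.0%, 2.90% and 43.5%, all bins 15.3%, 6.54% and 47.9%). The causes were not tested.

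Listed bins in SW480 ERβ fell from 19 to 7 at a group mean of 3, to 12 at 6 times the input, and to 11 with libraries scaled to equal mean signal over tested bins. Left-out libraries gave 16 to 23 there, 11 to 27 in HT29 mock, 11 to 16 in HT29 ERβ and 5 to 6 in SW480 mock. Of 1265 alternative values of single bins, 1148 stayed on their side of the threshold, 85 passed it newly, 32 lost it, and no called value changed sign. Among those that stayed, 53 values past the threshold in neither fit changed sign.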

Other observations

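Between the mock lines, 50 of the 178 tested bins of the 48 other pathway genes (28.1%), at 12 genes, were called lower in SW480 and 6 (3.37%), at 4 genes, higher, against 22% and 5.94% of all tested bins (limma). Of the 25 genes with a listed bin, the strongest such bin was called lower in 7 and higher in 2. BMP7, NEDD4L and SMAD1 are 3 of these 9, named after their values were seen. BMP7, a ligand of the BMP branch, had means of 5.54 ± 0.858 in SW480 ERβ, 2.49 ± 0.187 in SW480 mock, 0.829 ± 0.111 in HT29 mock and 0.937 ± 0.665 in HT29 ERβ (SD, n = 3) at an intronic bin. NEDD4L, a ubiquitin ligase, had 3.76 ± 1.58 in HT29 mock against 0.647 ± 0.138 in SW480 mock, and SMAD1, a transducer of the BMP branch, 3.53 ± 1.82 against 0.643 ± 0.351. In HT29 ERβ and SW480 ERβ the means were 2.79 and 1.78 at NEDD4L and 3.19 and 0.934 at SMAD1. Since these 3 bins were taken from those called between the mock lines, a difference there was fixed by the choice. SW480 mock minus HT29 mock was 0.93 at BMP7, −1.47 at NEDD4L and −1.41 at SMAD1 (adjusted p = 0.018, 0.00038 and 0.00039, limma). The BMP7 bin was listed in SW480 ERβ alone, and those of NEDD4L and SMAD1 in the HT29 groups alone. That listing favours differences between the lines in both conditions. Between the ERβ derivatives BMP7 and SMAD1 differed (1.80 and −1.12, adjusted p = 2.79e-06 and 0.0028), and NEDD4L did not pass (−0.45, adjusted p = 0.28).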
